A study of Mus musculus with 8 samples.

Results

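Tight junctions seal the space between neighbouring cells, and the 9 genes described here encode 6 claudins (Cldn1, Cldn3, Cldn4, Cldn5, Cldn7 and Cldn18), the membrane protein occludin (Ocln), and the cytoplasmic junction proteins ZO-1 (Tjp1) and cingulin (Cgn). Members were the probe sets whose platform annotation names 1 of these symbols and no other, which gave 18 of the 45101 probe sets on the array. Their levels were read on Affymetrix arrays, 1 for each of 8 FVB/N mouse pups, from total RNA of the lung. All 8 pups carry the same genotype entry, a lung-targeted inducible FGF18 transgene made of SP-C-rtTA and (teto)7-FGF18. In such lines the surfactant protein C promoter drives rtTA in distal lung epithelium, and rtTA switches on the cassette when doxycycline is given. The 4 controls were pups D02, D40, D50 and D58, and the 4 cases were D04, D34, D48 and D52. The design text describes pairs of pups with 1 or both transgenes from 4 litters, picked by how far FGF18 was induced, so the genotype entry does not tell the groups apart. The sources used here state neither the age of the pups nor the doxycycline schedule.

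Claudins are the proteins that form the strands of the tight junction, and the set of claudins a cell makes decides which ions and solutes cross between cells. Occludin and its relatives lie in the same strands, while ZO-1 and cingulin couple the strands to actin on the inner face of the membrane. In the alveoli, claudin-18 is the most characteristic claudin of the epithelium, and claudin-3, claudin-4 and claudin-7 are also made there. Claudin-5 is the main claudin of endothelial cells, and claudin-1 is best known from airway and stratified epithelia.

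Promoter sequences are shown for Cldn18 and Cldn3, the members with the lowest and the highest difference between the groups, neither of which passed the test. Each is the 250 bases before an annotated start, 5′ to 3′ on the strand of the gene, from RefSeq (GRCm38.p6). RefSeq lists starts for Cldn18 that lie 7204 bases apart on the minus strand of chromosome 9. Capitals mark CAAGTG, the other-strand form of CACTTG, which is the core of the site bound by NKX2-1, a transcription factor of the lung epithelium.
Cldn18, chr9:99710064-99710313, minus strand: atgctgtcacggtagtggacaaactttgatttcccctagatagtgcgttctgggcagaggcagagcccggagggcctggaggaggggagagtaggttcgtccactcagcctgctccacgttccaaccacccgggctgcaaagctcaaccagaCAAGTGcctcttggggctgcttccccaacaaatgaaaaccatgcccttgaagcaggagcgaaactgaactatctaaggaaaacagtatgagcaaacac
Cldn18, chr9:99717268-99717517, minus strand: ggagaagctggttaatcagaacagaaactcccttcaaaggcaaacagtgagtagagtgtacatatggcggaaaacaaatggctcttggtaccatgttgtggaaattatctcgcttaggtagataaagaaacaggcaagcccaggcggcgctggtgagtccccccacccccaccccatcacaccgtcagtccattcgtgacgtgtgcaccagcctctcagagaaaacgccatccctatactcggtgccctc
Cldn3, chr5:134985964-134986213, plus strand: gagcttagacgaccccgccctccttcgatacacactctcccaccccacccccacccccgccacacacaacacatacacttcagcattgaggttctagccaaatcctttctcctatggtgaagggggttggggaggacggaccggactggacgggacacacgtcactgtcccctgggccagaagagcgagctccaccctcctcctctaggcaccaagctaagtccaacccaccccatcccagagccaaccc
The capitals begin 98 bases before the start in the first sequence. Neither of the other sequences holds CACTTG on either strand, and 11.6% of the 32851 windows of this length in the table do. The same 3 sequences hold no CAGGTG (an E-box, in 17.2% of windows), no TATAAA (12.4%) and no CCGGAA (an ETS core, 12%) on either strand. A match is a description of the letters in the window. All 9 genes had at least 1 window, 12 in all. Mouse Cldn18 is known for a lung and a stomach form with different first exons, and the annotation does not say which form either of its probe sets reads. The Cldn18 starts shown are not assigned to the lung or the stomach form here, so the capitals may lie before either.

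The targeted gene was read first, as a check of the labels. Fgf18 measured 7.05, 7.76, 7.11 and 7.07 log2 in controls D02, D40, D50 and D58. It measured 10.82, 12.09 and 9.82 in cases D04, D34 and D48, but 7.66 in the library labelled Case D52, which lies within the control range. Differences of the members between case and control are therefore given with and without that library. On Abca3, a gene of alveolar type 2 cells, D52 read 10.27 log2, the other cases 10.49 to 10.65 and the controls 11.34 to 11.56. D52 thus read like the controls for Fgf18 but like the cases for Abca3, and why was not tested. Abca3 was the 1 gene that passed the test with D52 counted as a case, so it was not chosen independently of D52. Club cell markers shifted from the control mean by a median of -0.11 in D52 and by -1.15 to -0.50 in the other cases. Type 2 cell markers, Abca3 among them, shifted by -0.25 in D52 and by -0.01 to 0.11 in the other cases. Xist and Y-linked genes read as female in D02, D04 and D34 and as male in the other 5 pups, so the control group held 1 female and the case group 2. Array medians lay between 7.02 and 7.12 log2, correlations between arrays between 0.983 and 0.996. Precision is limited by the number of arrays. Markers of lung epithelium were bright in every pup: Sftpc of alveolar type 2 cells lay between 14.48 and 14.65 log2, and Ager of type 1 cells between 13.01 and 13.58. No array value was 0.

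None of the tight junction members passed the test for a difference between case and control. In the limma fit over 12856 genes, 0 of the 9 members passed the threshold of 0.05 after Benjamini-Hochberg adjustment, with adjusted p between 0.736 and 0.957. None had an unadjusted p under 0.05. Over all genes, 0.00778% passed the adjusted threshold (1 gene, Abca3, which encodes a lipid transporter of type 2 cells and was lower in cases, a call that held with 3 of the 8 pups left out in turn, with adjusted p from 0.00609 to 0.101) and 6.29% had an unadjusted p under 0.05. The groups overlapped for all 9 members, while they did not overlap for 3.96% of all genes. The median difference, case minus control, was -0.03 log2 over the members and -0.01 over all genes. Differences ran from -0.20 (Cldn18) to 0.17 (Cldn3), with 6 members below 0 and 3 above. After quantile normalization Cldn4 and Tjp1 turned to 0.02 and 0.005, which left 4 below and 5 above.

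**Figure D1:**
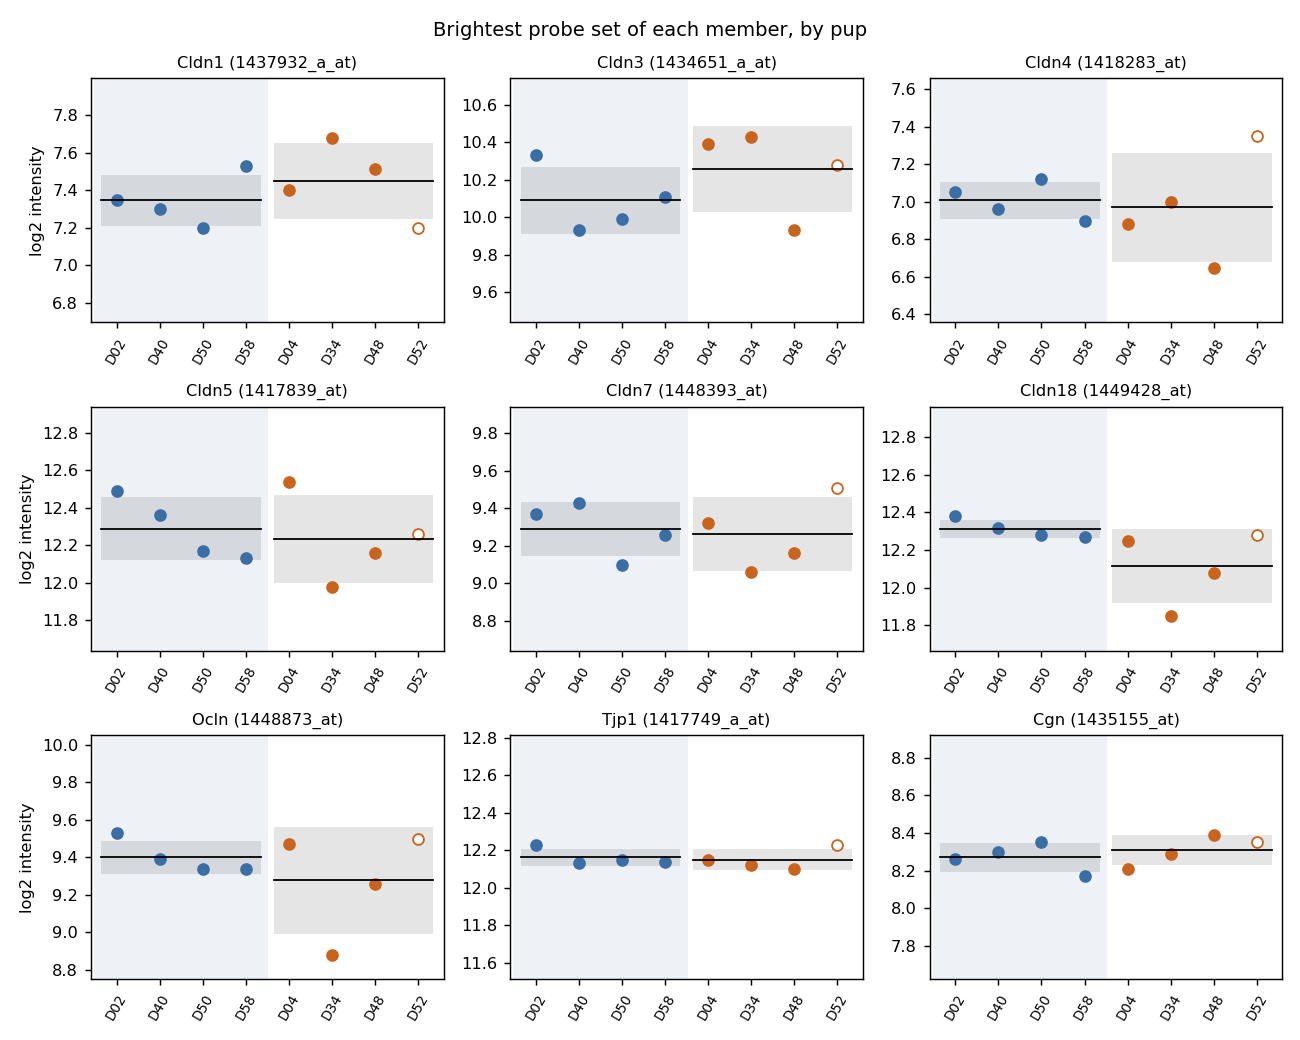
Log2 intensity (vertical axes, 1 scale width for all panels) of the brightest probe set of each of the 9 members in the 8 pups (horizontal axes). Blue points are controls, orange points cases, the open point Case D52, lines group means and shaded boxes 1 SD on either side (n = 4); case and control points overlap in every panel.

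Without the library labelled Case D52, 0 of 9 members passed as well, against 0.0467% of all genes. Cldn18 alone then had an unadjusted p under 0.05, where 12.7% of all genes did, and it was the only member whose groups did not overlap, where 13.7% of all genes did not. Over the 18 probe sets, read in a fit of all 45037 probe sets without a filter, 0 passed with 8 pups (0.00444% of all probe sets) and 0 without Case D52 (0.0377%). No member probe set had an unadjusted p under 0.05 with 8 pups (7.54% of all) and 2 did without Case D52 (12.1%), 1 of Cldn18 and 1 of Ocln. The same 2 were free of overlap without that library (12.3% of all probe sets), and none was with all 8 pups (4.31%). The members' shares were near or under these backgrounds, so nothing particular to tight junction genes is read from them.

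**Figure D2:**
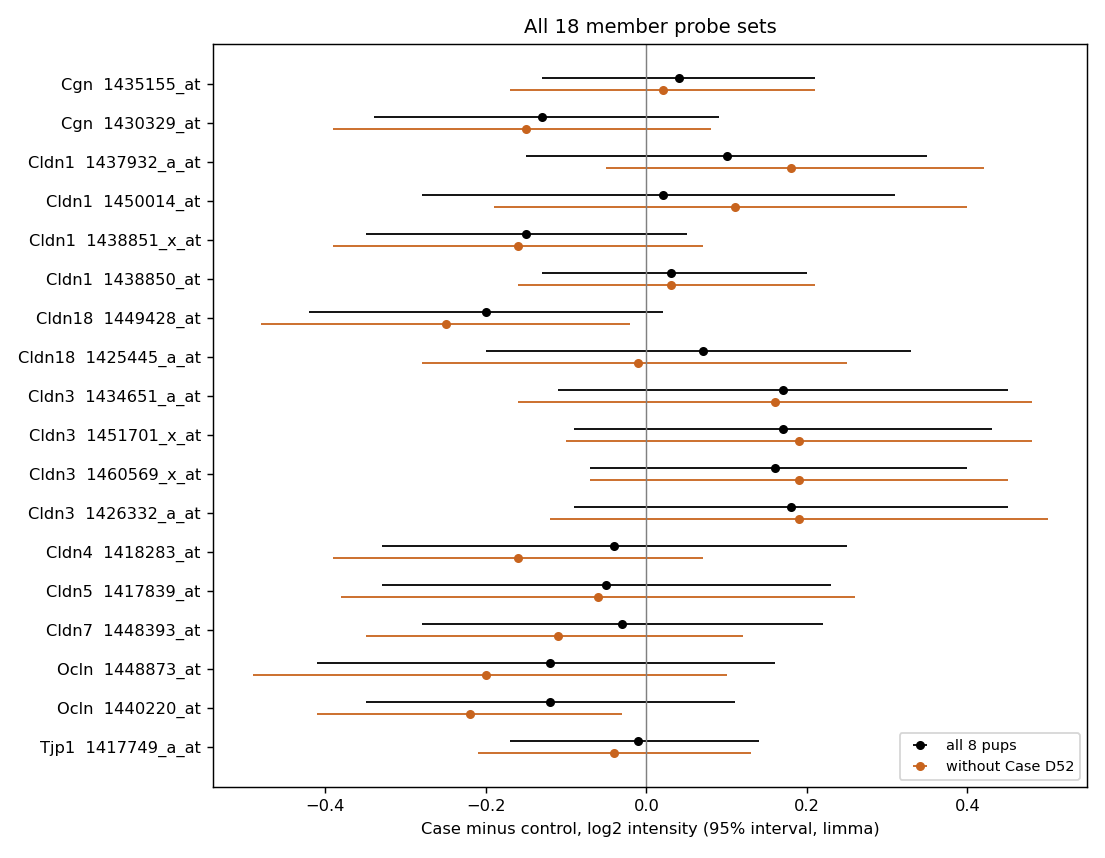
Difference in log2 intensity, case minus control (horizontal axis), for the 18 member probe sets, with the 95% interval of the limma fit over all probe sets. Black shows all 8 pups and orange 7 pups without Case D52; every black interval includes 0, and the orange intervals of Cldn18 1449428_at and Ocln 1440220_at lie below it.

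Cldn18, the claudin of alveolar epithelium, had the lowest difference of the members. Its brighter probe set, 1449428_at, read 12.38, 12.32, 12.28 and 12.27 log2 in controls D02, D40, D50 and D58. In cases D04, D34, D48 and D52 it read 12.25, 11.85, 12.08 and 12.28. Cases D04, D34 and D48 lay below every control, D04 by little, and Case D52 lay inside the control range. The means were 12.31 ± 0.05 (SD, n = 4) and 12.11 ± 0.20 (SD, n = 4), and the difference was -0.20 log2 (95% interval -0.41 to 0.02, limma over 12856 genes, adjusted p = 0.736), a ratio of case to control of 0.873. Without Case D52 it was -0.25 (-0.47 to -0.03, limma, adjusted p = 0.333). Leaving out Case D34 instead gave -0.11, the smallest difference with any single pup left out. With the mean of both Cldn18 probe sets in place of the brighter it was -0.07, and with array weights -0.09.

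Type 1 cell markers were also lowest in D34. Over the 8 markers of alveolar type 1 cells, all tested, none passed the threshold, 8 of 8 differences were below 0 and the median was -0.17, or -0.22 without Case D52. The list's median shift from the control mean was -0.52 in D34 and between -0.09 and 0.01 in the other 3 cases. Cldn18 1449428_at shifted by -0.46 in D34, -0.23 in D48, -0.06 in D04 and -0.03 in D52. The log2 of the summed intensities of the 8 markers ran from 14.99 to 15.06 in controls and from 14.59 to 15.02 in cases. Aqp5, a water channel of type 1 cells, was lowest in D34 at 10.34 log2 and highest in control D40 at 11.33. Of the 7 type 2 markers with a probe set, 1 passed (Abca3, at -0.98 log2, adjusted p = 0.0108 in limma, and -0.90, adjusted p = 0.0152, without Case D52), 3 were below 0, the median was 0.02, and the list shifted by a median of -0.25 in D52, 0.11 in D34, 0.07 in D04 and -0.01 in D48. Their summed log2 level ran from 15.66 to 15.81 in controls and from 15.55 to 15.81 in cases. The part of these markers in the Cldn18 difference was not tested, and in lung RNA fewer cells of a type and less RNA per cell cannot be told apart.

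The second Cldn18 probe set, 1425445_a_at, did not follow the first. It read 10.56, 10.37, 10.58 and 10.36 log2 in controls D02, D40, D50 and D58, and 10.56, 10.20, 10.60 and 10.77 in cases D04, D34, D48 and D52. The highest value was that of Case D52 and the lowest that of D34, so the case values enclosed the control values. The difference was 0.07 log2 (95% interval -0.20 to 0.33, adjusted p = 0.906), and -0.01 without Case D52.

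Set against each other within each pup, the 2 Cldn18 probe sets separated the groups. Their log2 difference, 1449428_at minus 1425445_a_at, was 1.82, 1.95, 1.70 and 1.91 in the controls and 1.68, 1.65, 1.48 and 1.51 in D04, D34, D48 and D52. Every case was below every control, Case D52 included, and D04 and D50 were the nearest pair. The case value minus the control value was -0.26 log2 (95% interval -0.44 to -0.09) and missed the threshold after adjustment over the 5814 genes with at least 2 probe sets (limma, adjusted p = 0.967). Over those genes 0% passed the adjusted threshold, and 2.63% had groups free of overlap. Without Case D52 it was -0.24 (-0.43 to -0.04, adjusted p = 0.644). For Cldn3, Ocln and Cgn the same quantity, brightest minus second brightest probe set, differed by 0.00, 0.00 and 0.17 log2 with overlapping groups. This comparison was added after the values of the probe sets had been seen.

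**Figure D3:**
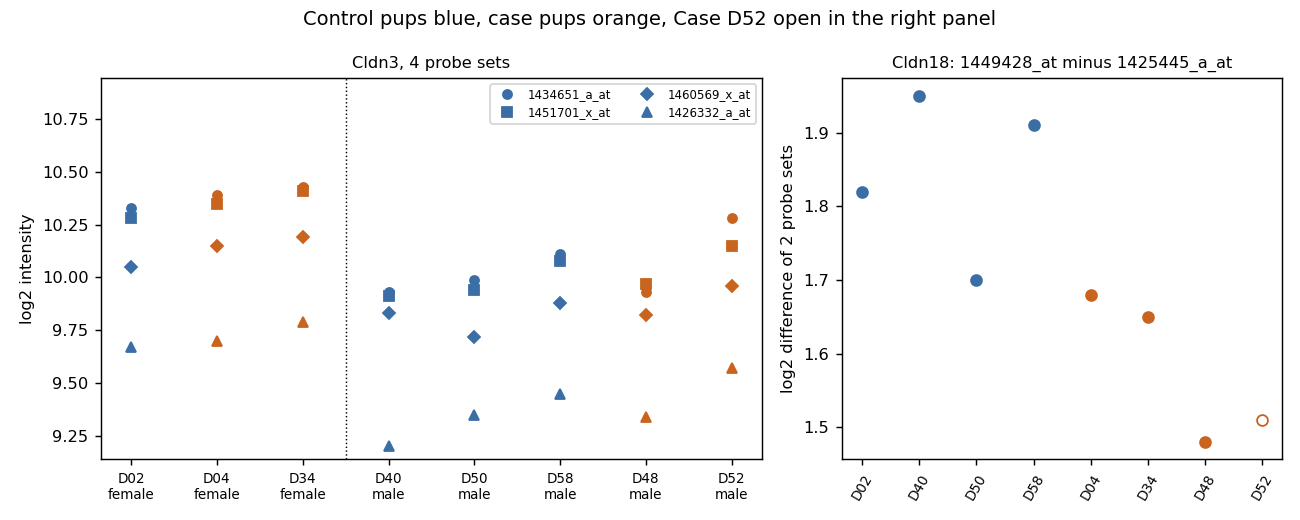
Left, log2 intensity (vertical axis) of the 4 Cldn3 probe sets in the 3 female and 5 male pups, where each probe set is higher in every female than in any male. Right, log2 difference of the 2 Cldn18 probe sets in each pup, from 1.70 to 1.95 in controls and from 1.48 to 1.68 in cases.

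Cldn3, a claudin of many epithelia that is made in alveolar type 2 cells, had the highest difference of the members, and its values followed the sex of the pup. The brightest probe set, 1434651_a_at, read 10.33, 9.93, 9.99 and 10.11 log2 in controls D02, D40, D50 and D58. In cases D04, D34, D48 and D52 it read 10.39, 10.43, 9.93 and 10.28. The means were 10.09 ± 0.18 (SD, n = 4) and 10.26 ± 0.23 (SD, n = 4), which differed by 0.17 log2 (95% interval -0.11 to 0.45, limma, adjusted p = 0.764), and by 0.16 without Case D52. The 3 highest values belonged to the 3 pups read as female, of which 2 are cases.

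All 4 Cldn3 probe sets ordered the sexes alike. Differences between case and control were 0.17 for 1451701_x_at, 0.16 for 1460569_x_at and 0.18 for 1426332_a_at, and 0.19 for each of these without Case D52. The suffix x marks sets with probes that also match other transcripts, and the 4 sets read 1 gene in the same 8 RNAs, so they are not independent. On 1451701_x_at the females lay between 10.28 and 10.41 and the males between 9.91 and 10.15. On 1460569_x_at the females lay between 10.05 and 10.19 and the males between 9.72 and 9.96. On 1426332_a_at they lay between 9.67 and 9.79 and between 9.20 and 9.57. The sexes were free of overlap on each of the 4 sets, and 5.87% of all genes separate the 3 females from the 5 males in either direction. No probe set of any other member separated them.

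With sex as a covariate, the Cldn3 difference between case and control was 0.09 log2 (95% interval -0.11 to 0.29, adjusted p = 0.917), and 0 of the 9 members passed in that fit, where 0.0156% of all genes did. The difference within sexes was 0.08 among females (2 cases, 1 control) and 0.10 among males (2 cases, 3 controls). Female minus male in the same fit was 0.31 log2 (0.10 to 0.52) and missed the threshold after adjustment (limma, adjusted p = 0.711), which 0.109% of all genes passed. This term was added after the Cldn3 values had been seen.

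Cldn4, a sealing claudin that is known to increase in injured lung epithelium, was close between the groups. Its probe set 1418283_at read 7.05, 6.96, 7.12 and 6.90 log2 in controls D02, D40, D50 and D58, and 6.88, 7.00, 6.65 and 7.35 in cases D04, D34, D48 and D52. The cases held both the lowest pup, D48, and the highest, Case D52. The difference was -0.04 log2 (95% interval -0.33 to 0.25, limma, adjusted p = 0.947), 0.02 after quantile normalization, and -0.16 (-0.38 to 0.05) without Case D52.

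Cldn7, which lies along the lateral membrane as well as in the junction, read 9.37, 9.43, 9.10 and 9.26 log2 in the controls and 9.32, 9.06, 9.16 and 9.51 in D04, D34, D48 and D52 on probe set 1448393_at. Case D34 was the lowest pup and Case D52 the highest. The difference was -0.03 log2 (95% interval -0.27 to 0.22, limma, adjusted p = 0.954), and -0.11 (-0.34 to 0.11) without Case D52.

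Cldn1 was carried by 4 probe sets, of which 1437932_a_at alone was above the dim limit of 6.51 log2. That set read 7.35, 7.30, 7.20 and 7.53 log2 in the controls and 7.40, 7.68, 7.51 and 7.20 in D04, D34, D48 and D52. D34 was the highest pup, and control D50 and Case D52 were the lowest. The difference was 0.10 log2 (95% interval -0.15 to 0.34, limma, adjusted p = 0.82), and 0.18 (-0.04 to 0.41) without Case D52. It was 0.16 without control D58, 0.05 without control D50 and 0.02 without case D34. The dim sets 1450014_at, 1438851_x_at and 1438850_at had mean levels of 5.88, 3.76 and 3.57 log2, and their differences were 0.02, -0.15 and 0.03, or 0.11, -0.16 and 0.03 without Case D52. Markers of basal and stratified epithelium were low: Trp63 lay between 6.94 and 7.14 log2, Krt5 between 6.64 and 6.88, and Krt14 was under the dim limit on average.

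Cldn5, the endothelial claudin, spread more widely within the groups than the group means differed. Its probe set 1417839_at read 12.49, 12.36, 12.17 and 12.13 log2 in controls D02, D40, D50 and D58, and 12.54, 11.98, 12.16 and 12.26 in cases D04, D34, D48 and D52. D04 and D02, the only pair the authors set against each other in a deposited ratio column, were the highest pups, and D34 was the lowest. The means were 12.29 ± 0.17 (SD, n = 4) and 12.24 ± 0.23 (SD, n = 4), a difference of -0.05 log2 (95% interval -0.33 to 0.22, limma, adjusted p = 0.918). Without Case D52 it was -0.06.

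Of the 8 endothelial markers, 7 were lowest in D34 and 1, Emcn, was not. All were tested, and their median difference was -0.07 log2 (-0.09 without Case D52) with 7 below 0 and none past the threshold, and their summed log2 level ran from 14.50 to 14.62 in controls and from 14.24 to 14.58 in cases. Their median shift was -0.28 in D34, between -0.05 and 0.04 in the other cases, and 0.03 in D02, where Cldn5 shifted by -0.30 in D34, 0.25 in D04 and 0.21 in D02. The junctional cadherin Cdh5 read 12.17 in D34 and between 12.36 and 12.48 in the other 7 pups. Pecam1 read 10.95 in D34 and between 11.08 and 11.35 elsewhere. The part of these markers in the Cldn5 values was not tested.

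Ocln, the occludin gene, was lowest in D34 on both of its probe sets. The brighter, 1448873_at, read 9.53, 9.39, 9.34 and 9.34 log2 in controls D02, D40, D50 and D58, and 9.47, 8.88, 9.26 and 9.50 in cases D04, D34, D48 and D52. The difference was -0.12 log2 (95% interval -0.41 to 0.16, limma, adjusted p = 0.811), -0.20 without Case D52 and 0.01 without D34. Cases D04 and D52 lay among the controls.

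The second Ocln probe set, 1440220_at, read 8.99, 8.91, 8.91 and 8.98 in the controls and 8.84, 8.59, 8.75 and 9.10 in D04, D34, D48 and D52. Cases D04, D34 and D48 lay below every control and Case D52 above every control. With all 8 pups the difference was -0.12 log2 (95% interval -0.35 to 0.11, adjusted p = 0.782). Without Case D52 it was -0.22 (-0.41 to -0.03) and missed the threshold after adjustment over all probe sets (limma, adjusted p = 0.359). Beside it, the 8 tested markers of epithelium in general had a median difference of -0.15 log2 (-0.19 without Case D52), 7 of them below 0 and none past the threshold, with a summed log2 level of 13.47 to 13.61 in controls and 13.17 to 13.60 in cases. They shifted by a median of -0.30 in D34, -0.12 in D04, 0.00 in D48 and 0.04 in D52. Cdh1, the epithelial cadherin, read 10.92 in D34 and between 11.17 and 11.42 elsewhere, and Epcam, an epithelial adhesion protein, read 9.63 in D34 within a range of 9.55 to 9.84. The part of these markers in the Ocln values was not tested.

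Tjp1 and Cgn encode the plaque proteins ZO-1 and cingulin, and the brightest probe set of each had a narrow range over the 8 pups. Tjp1 1417749_a_at read 12.23, 12.13, 12.15 and 12.14 log2 in controls D02, D40, D50 and D58, and 12.15, 12.12, 12.10 and 12.23 in cases D04, D34, D48 and D52. One control, D02, and Case D52 stood at the top together. The difference was -0.01 log2 (95% interval -0.15 to 0.12, limma, adjusted p = 0.957), -0.04 without Case D52, and 0.005 after quantile normalization. A p that misses the threshold does not show that the groups are alike.

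Cgn 1435155_at read 8.26, 8.30, 8.35 and 8.17 log2 in the controls and 8.21, 8.29, 8.39 and 8.35 in D04, D34, D48 and D52, a difference of 0.04 (95% interval -0.11 to 0.19, limma, adjusted p = 0.886), or 0.02 without Case D52. The second set, 1430329_at, read 7.63, 7.43, 7.58 and 7.52 in the controls and 7.59, 7.37, 7.19 and 7.49 in the cases, a difference of -0.13 (-0.34 to 0.09), or -0.15 without Case D52. The groups overlapped on both sets, which had opposite signs, and D48 was the highest pup on the first and the lowest on the second.

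By pup, the members' median level in the cases lay on both sides of that in the controls. Relative to the control mean, the 9 members shifted by a median of 0.03 (D04), -0.05 (D34), -0.13 (D48) and 0.08 (D52). Among the controls this median ran from -0.06 in D50 to 0.07 in D02, so D48 lay below the range of the controls and D52 just above it. In D34, the pup with the highest Fgf18, 6 of 9 members were below the control mean, with Ocln at -0.52, Cldn18 at -0.46 and Cldn5 at -0.30, while Cldn3 was at 0.34 and Cldn1 at 0.33. In D48, 7 of 9 were below, among them Cldn4 at -0.35, and 7 of 9 were also below in controls D50 and D58. In the library labelled Case D52, 3 of 9 were below and Cldn4 was at 0.34. D34 was also the lowest pup for 4 of 4 mesothelial and 4 of 5 heart and skeletal muscle markers, and Acta1, a skeletal muscle actin, was lower in D48. The mesothelial markers shifted by a median of -1.18 in D34, with a summed log2 level of 11.14 to 11.79 in controls and 10.42 to 11.47 in cases, and Msln, the mesothelin gene, read 9.72 in D34 and between 10.27 and 10.83 elsewhere. The muscle markers shifted by a median of -1.43 in D34, with a summed log2 level of 12.66 to 13.18 in controls and 11.23 to 12.99 in cases. None of these 9 markers passed the threshold, and their part in the members' values was not tested.

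**Figure D4:**
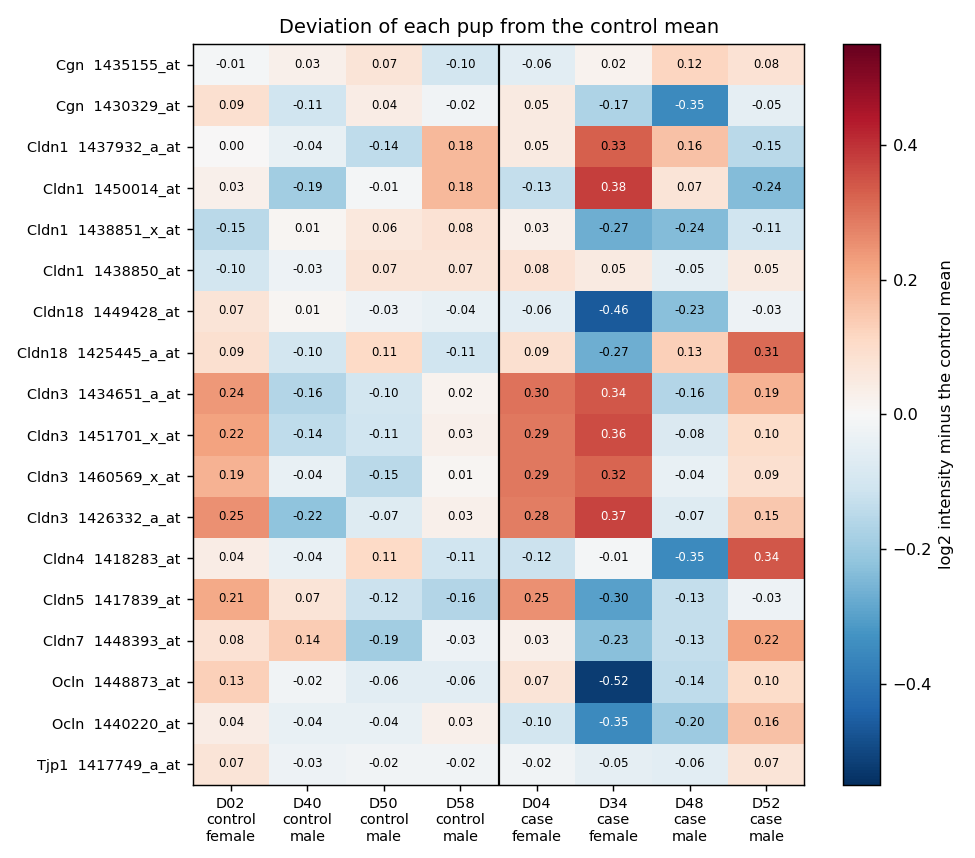
Log2 intensity of each of the 18 member probe sets (rows) in each pup (columns) minus the mean of the 4 controls, as colour and number. D34 holds the lowest values (Ocln at -0.52, Cldn18 at -0.46), and the Cldn3 rows are positive in the female pups D02, D04 and D34 and, to a lesser degree, in the male pups D58 and D52.

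None of the other tight junction genes tested differed between the groups past the threshold either. Of 50 listed, 46 had a probe set, 35 of them were above the dim limit and 11 were not, while the remaining 4 were not analysed here. In the fit over all genes 0 of the 35 passed in either direction (adjusted p between 0.736 and 0.999), and none had an unadjusted p under 0.05. Differences were below 0 for 27 and above 0 for 8, with or without quantile normalization, and the median was -0.07 log2. Over all genes, 7076 of 12856 differences were below 0 and the median was -0.01 log2. Without Case D52, 0 passed and 3 had an unadjusted p under 0.05 (Cldn10, Cldn15 and Tjp3), each with a difference below 0, where 12.7% of all genes had such a p. The groups were free of overlap for 1 of the 35 with 8 pups (3.96% of all genes) and for 2 without Case D52 (13.7% of all genes). The counts of calls, of unadjusted p under 0.05 and of groups free of overlap were thus near or under the shares over all genes. The count of differences below 0 was above the share over all genes, and its cause was not tested.

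By role, the 6 other claudins tested had a median of -0.08 log2, the 4 tricellular and MARVEL proteins -0.15, the 6 genes of the junctional adhesion molecule family -0.06, the 6 scaffolds -0.07, the 8 polarity genes -0.01 and the 5 regulators -0.05. By pup, the median shift of the 35 genes was -0.14 in D34, and between -0.03 and 0.00 in the other cases.

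Cldn10, whose protein forms ion-selective pores, had the smallest unadjusted p of the 35. Its probe set read 9.07, 9.29, 9.18 and 9.01 log2 in controls D02, D40, D50 and D58, and 8.92, 8.68, 8.89 and 9.18 in cases D04, D34, D48 and D52. Cases D04, D34 and D48 lay below every control, and Case D52 lay within the control range. The difference was -0.22 log2 (95% interval -0.46 to 0.02, limma, adjusted p = 0.736), and -0.31 (-0.52 to -0.10, adjusted p = 0.232) without Case D52. Beside it, all 5 club cell markers had differences below 0 with a median of -0.56 (-0.67 without Case D52), none past the threshold. The club cell list shifted by a median of -1.15 in D34, -0.51 in D04, -0.50 in D48 and -0.11 in Case D52, and its summed log2 level ran from 15.29 to 15.57 in controls and from 14.26 to 15.48 in cases. The 6 ciliated cell markers were all below 0 (median -0.37, or -0.46 without Case D52) without passing the threshold, shifted by -0.72, -0.34, -0.33 and -0.08 in the same order, and had a summed log2 level of 10.27 to 10.43 in controls and 9.51 to 10.24 in cases. Scgb1a1, the club cell secretoglobin, was lowest in D34 at 13.48 log2 and lay between 14.04 and 14.36 elsewhere, and Foxj1, the regulator of ciliated cells, was lowest there at 6.82. The part of either list in the Cldn10 values was not tested.

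F11r, which encodes the adhesion molecule JAM-A, was the 1 gene of the 35 whose groups did not overlap with all 8 pups, where 3.96% of all genes did not. It read 11.07, 11.05, 11.05 and 10.97 log2 in the controls and 10.93, 10.79, 10.95 and 10.94 in D04, D34, D48 and D52. The gap between the nearest pups, control D58 and case D48, was small beside the range of the cases. The difference was -0.13 log2 (95% interval -0.27 to 0.01, limma, adjusted p = 0.736), and -0.14 without Case D52.

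The next smallest p-values belonged to 4 more genes, and none passed. Prkcz, an atypical protein kinase C of the polarity complex, differed by -0.20 log2 (95% interval -0.42 to 0.03), and Marveld2, the tricellular protein tricellulin, by -0.20 (-0.46 to 0.05), each lowest in D34. Igsf5, a member of the junctional adhesion molecule family, differed by 0.15 (-0.05 to 0.35), and Rab13, a small GTPase that carries junction proteins to the membrane, by 0.11 (-0.04 to 0.26). Without Case D52 the differences of Prkcz, Marveld2, Igsf5 and Rab13 were -0.23, -0.23, 0.15 and 0.14. Cldn8 lies outside the rule for named genes and was chosen after its values were seen. Cldn8, dim on average, read 6.43, 6.11, 6.61 and 6.64 log2 in the controls and 5.75, 5.33, 6.10 and 6.24 in D04, D34, D48 and D52. The difference was -0.59 in the fit without a filter (limma, adjusted p = 0.618). Its cases D04, D34 and D48 lay below every control, D48 by little, at 6.10 beside 6.11 in control D40. Cldn11, dimmer still, differed by -0.31 in that fit (limma, adjusted p = 0.62), with the same cases below every control. These were the only dim genes of the list with an unadjusted p under 0.05, and 7.54% of all probe sets had such a p. Without Case D52 the groups were free of overlap for 12.3% of all probe sets.

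**Figure D5:**
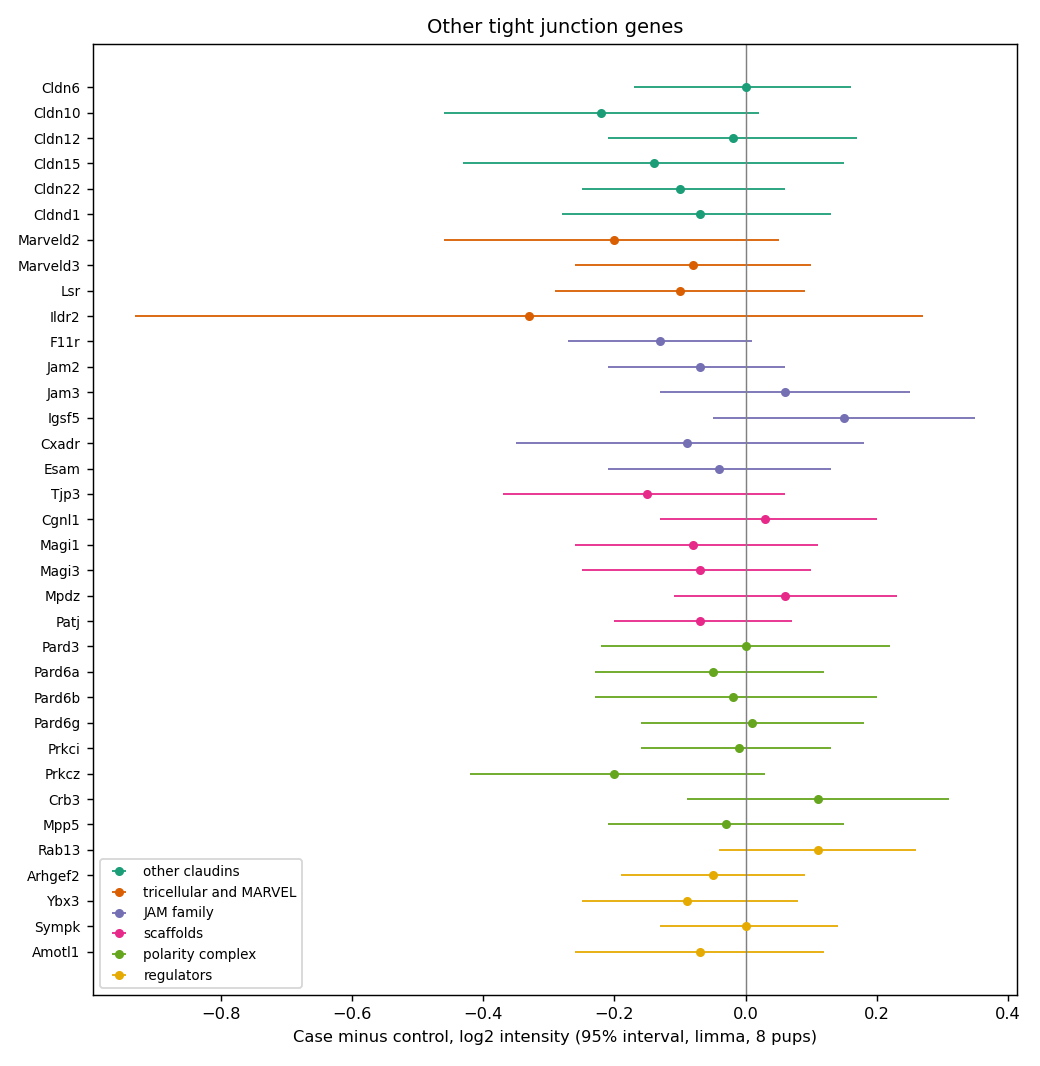
Difference in log2 intensity, case minus control (horizontal axis), with the 95% interval of the limma fit over 8 pups, for the 35 tested tight junction genes other than the members, coloured by role. Points lie between -0.33 and 0.15, and every interval includes 0.

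Genes with the most similar profiles over the 8 pups were found for 4 members by the root mean square difference of log2 values standardised over the pups, where 0 means the same profile. For Cldn18 they were Pmp22 (0.15), Pcdh7 (0.17) and Tekt4 (0.18). For Cldn5 they were Stfa2l1 (0.26), Irx2 (0.27) and Icam2 (0.28), and for Cldn3 they were Dusp9 (0.27), Kcnj13 (0.27) and Tbrg4 (0.31). For Tjp1 they were Nrn1l (0.29), Mroh3 (0.37) and Sdr39u1 (0.40). These are the closest 3 among the 12856 genes after all members were left out, so no other member could appear. The profiles cover the same 8 arrays, and the measure is given as a description.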

How the data were processed

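Total lung RNA of 8 pups was biotin-labelled for Affymetrix arrays, per the labels' protocols. The authors deposited linear probe set intensities. The package affy is named in the submitters' processing notes, while background correction, summary and normalization were not given in the sources used here. A column of log2 ratios, also deposited by the authors, equalled D04 over D02 within 1e-06 for 45101 of 45101 probe sets and was not used in any test.

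Pups were grouped by the sample titles and are separate animals. The labels tie no pups to litters, so no litter block was fitted. The log2 of each intensity was used unscaled, and 64 control probe sets were left out, which left 45037. In GEO's platform annotation 34945 probe sets had 1 gene symbol, 932 several and 9160 none, and 34741 of the first were found in the RefSeq gene table. For the gene fit, probe sets with a mean under the 40th percentile (6.51 log2) were left out and the brightest probe set of each gene was kept, which gave 12856 genes. Groups were compared with limma 3.58.1 (lmFit, eBayes) under R 4.3.3, adjusted by Benjamini-Hochberg over all genes or all probe sets, with a threshold of 0.05 and 95% intervals. The fit was also run on simulated data with independent noise, without shifts shared by the genes of a pup, and no result here rests on it. Tables and plots were made with Python 3.11.15.

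The members and gene lists were chosen with earlier results of these data known. The rule for named genes took all 9 members with each probe set, Fgf18, the 6 other tight junction genes with the smallest unadjusted p where none passed, F11r, fixed markers of each cell type and, for 4 members, the 3 genes with the most similar profile. Alternatives changed the filter, the normalization, an offset of 32 before log2, the choice of probe set, the moderation, array weights and a sex covariate, and left out each pup in turn.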

Additional observations from a re-analysis of the deposited data

Results flagged for a closer look

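Of 36 groups of 4 pups tested over the 18 member probe sets, 1 held a pup that stood apart by Dixon's gap test, and chance gives about 1 in 20 groups. Tjp1 1417749_a_at read 12.23 log2 in control D02, where the other 3 controls read 12.13 to 12.15. The gap was 0.884 of the group's range, above Dixon's 95% critical value for 4 pups. Case D52 had the same level, and without D02 the Tjp1 difference between case and control was 0.01 log2 in place of -0.01.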

How the results depend on the processing

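No alternative gave a call: over 240 single values of the members the smallest adjusted p was 0.234, and the counts of members called stayed at 0 in every alternative run. The sign held in 218 and turned in 22, of which 14 left out a pup. Quantile normalization turned Cldn4 to 0.02 and Tjp1 to 0.005, array weights turned Cldn5 to 0.169, Cldn7 to 0.068, Ocln to 0.025 and Cgn to -0.034, the mean of probe sets turned Cgn to -0.044, and the sex covariate turned Cldn1 1450014_at to -0.015. The mean of probe sets moved Cldn18 to -0.066, and array weights moved it to -0.091, Cldn1 to 0.058 and Cldn4 to -0.105. The cause was not tested.

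With each pup left out in turn, the log2 difference ran from -0.163 to 0.068 for Cldn4, from -0.153 to 0.032 for Cldn5, from -0.111 to 0.039 for Cldn7, from -0.195 to 0.01 for Ocln and from -0.042 to 0.01 for Tjp1. It ran from -0.1 to 0.106 for Cldn1 1450014_at, from -0.003 to 0.061 for Cldn1 1438850_at and from -0.014 to 0.178 for Cldn18 1425445_a_at. For Cldn18 1449428_at it ran from -0.251 without Case D52 to -0.108 without D34, for Cldn3 from 0.11 without D34 to 0.279 without D48 and for Cldn1 from 0.021 without D34 to 0.183 without Case D52, with no change of sign. No paired analysis was possible because the labels tie no pups to litters. With 4 pups a group, the 95% intervals of the 9 members reached as low as -0.41 and as high as 0.45 log2, and 3 of the 4 Cldn1 probe sets were under the dim limit.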
